A study of Mus musculus with 6 samples.

Results

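The Notch receptors, ligands and target genes comprised 10 genes, Notch1, Notch2, Notch3, Notch4, Jag1, Jag2, Hes1, Hey1, Heyl and Nrarp, of 18193 genes on the arrays. They were chosen by name, as every probe set annotated to exactly 1 of these genes, which gave 21 of 45037 probe sets. A probe set is a group of short probes on the array that reads 1 transcript region, and Notch4, Jag1 and Heyl had 3 of them. Hes1 and Hey1 were read by 1 probe set each and the remaining genes by 2.

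The study compared osteocytes, the cells embedded in bone matrix, between mice lacking estrogen receptor alpha in osteocytes (labelled ERaKO, ERαΔOcy/ΔOcy) and control littermates (labelled WT, ERαflox/flox in the extraction protocol). Both groups carried Dmp1-GFP, a green fluorescent reporter under the promoter of a bone matrix gene, and the label field gives female C57/BL6 mice of 10 to 12 days, while the extraction protocol calls them both 10-day-old and fetal. Each group had 3 arrays of total RNA from GFP+ calvarial cells sorted out of digestion fractions 4 to 6. The labels name neither the Cre driver behind the deletion nor the Cre status of controls, and Cre itself cannot be told apart from the lost receptor. The gate took 10% to 15% of cells from reporter mice, and 0.8% to 1.0% from mice without the reporter fell inside it. The series text states that RNA was not pooled, whereas the protocol speaks of pooled calvarial tissue, so the p-values measure the spread between these arrays, which may not be that between mice.

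Notch receptors are single-pass membrane proteins that are cut when a neighbouring cell presents a ligand of the Jagged or Delta-like families. The freed intracellular part enters the nucleus, joins the DNA-binding protein Rbpj and turns on target genes, among them the repressors of the Hes and Hey families. In bone, Notch signalling is known to restrain osteoblast maturation and to act in osteocytes on bone remodelling. Notch3 is best known as the receptor of vascular mural cells (pericytes and smooth muscle), and Notch4 of endothelial cells.

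The promoters of Notch3 and Nrarp are shown because these genes had the largest differences among the 10. The RefSeq promoter table (build GRCm38.p6) held 7 of the 10 genes and not Hes1, Hey1 or Heyl. Each line gives the 250 bases before the table's transcript start, 5′ to 3′ on the gene's strand. They lie at chr17:32166891-32167140 (minus strand) for Notch3 and at chr2:25180508-25180757 (plus strand) for Nrarp. Capitals mark matches on either strand to GGTCA, the repeated unit of the estrogen response element, or to CACGTG, an E-box that Hey and Hes proteins can bind.
Notch3: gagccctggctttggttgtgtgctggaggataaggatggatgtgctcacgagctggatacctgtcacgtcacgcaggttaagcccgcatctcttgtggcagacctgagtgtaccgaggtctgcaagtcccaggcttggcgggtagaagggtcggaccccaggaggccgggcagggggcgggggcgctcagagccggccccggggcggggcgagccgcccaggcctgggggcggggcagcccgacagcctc
Nrarp: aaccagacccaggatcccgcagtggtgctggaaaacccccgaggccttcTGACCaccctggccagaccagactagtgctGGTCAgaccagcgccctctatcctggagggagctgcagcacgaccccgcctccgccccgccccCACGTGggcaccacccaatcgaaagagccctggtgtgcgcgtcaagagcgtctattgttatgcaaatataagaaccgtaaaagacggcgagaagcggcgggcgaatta

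The Nrarp stretch held GGTCA in 2 places, once on each strand, and CACGTG once, and the Notch3 stretch held neither. GGTCA also occurs in 35.2% of 32851 promoters of the same length, and the E-box in 6.02%. Among the 7 promoters, Notch4 was the other with GGTCA. The letters TGGGAA, the core that Rbpj recognises, were found on either strand in 21.6% of all promoters and in 0 of the 7. The full palindromic estrogen response element, which holds GGTCA on both strands, was found in 0.0639% of all promoters and in 0 of the 7. A match to these letters is not a binding site, and a missing match says nothing of the factor.

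Levels are given as log2(signal + 16) after quantile normalisation, which gives every array the same distribution, and differences are ERaKO minus control on that scale. Each gene was read from its brightest probe set, and 10916 genes above the lowest 40% by mean over all 6 arrays (a log2 level of 5.37) were tested with limma. The threshold was a Benjamini-Hochberg adjusted p under 0.05 over all tested genes. By this test 0 of 10916 genes were higher (percent called 0%) and 0 were lower (0%), with 639 (5.85%) higher and 512 (4.69%) lower at an unadjusted p under 0.05. Of the 10 Notch genes 8 passed the level filter, and Notch4 and Jag2 did not. Among these 8, limma called 0, and 2 had an unadjusted p under 0.05.

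The 2 were Notch3 and Nrarp, both lower in ERaKO arrays, at 0.652 and 0.668 of the control level, without passing the threshold. They were also the only tested members whose groups did not overlap: 2 of 8 were separated as lower and 0 as higher, while 7.76% of all tested genes were separated as lower and 9.23% as higher. The receptors Notch1 and Notch2, the ligand Jag1 and the targets Hes1, Hey1 and Heyl had overlapping groups. The median difference of the 8 tested members was -0.07, against -0.01 over all genes tested. With the deposited scaling the first of these medians was 0.077 and the other 0.14. Of the 8 differences 3 lay above 0 and 5 below, where 48.3% and 51.7% of all tested genes did.

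**Figure D1:**
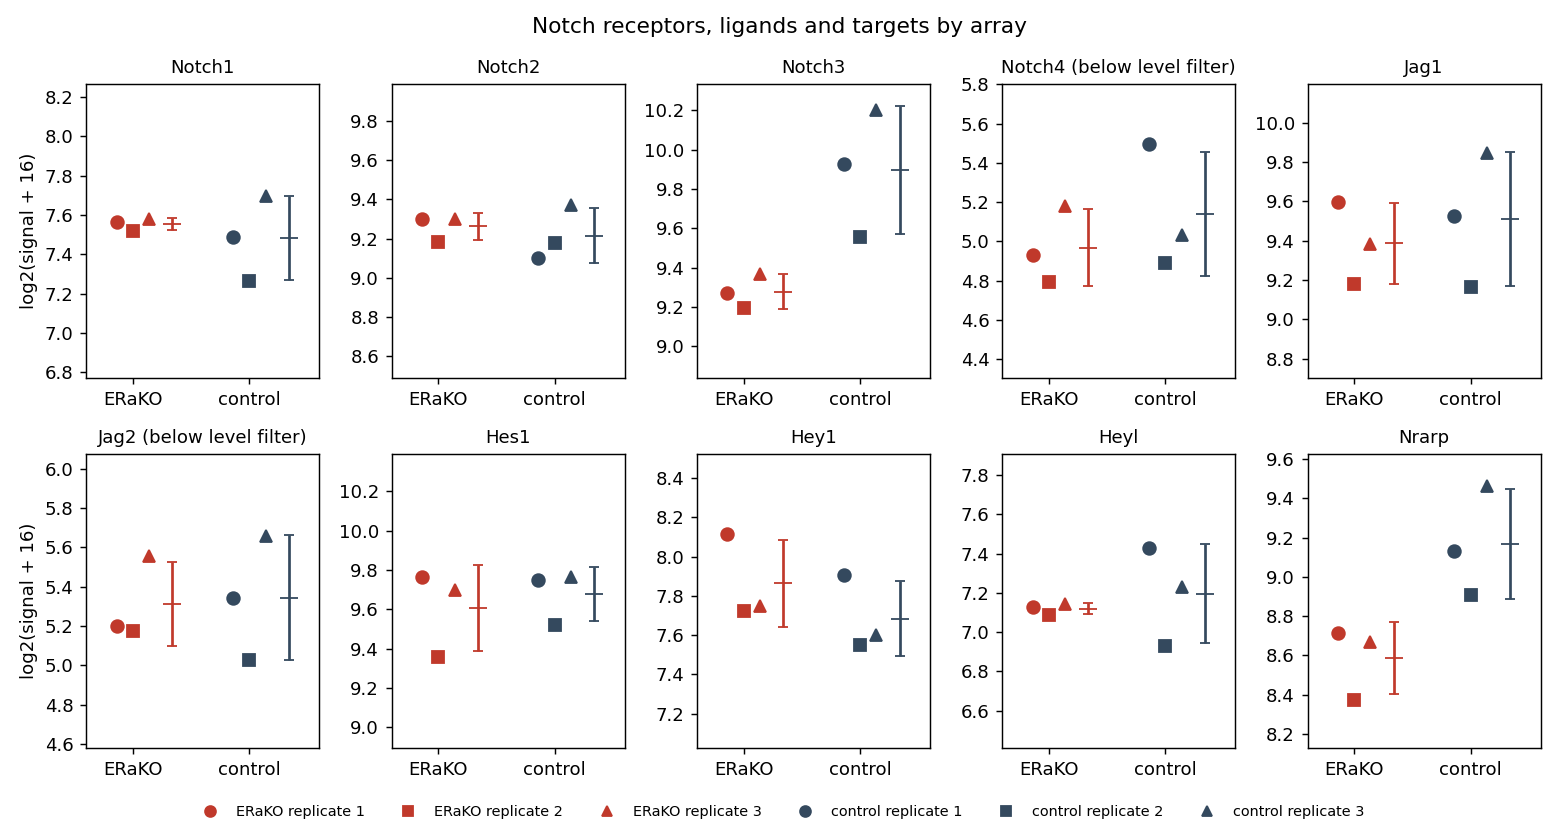
Log2(signal + 16) of each of the 10 genes on every array, ERaKO left and control right, with the mean and SD of 3 arrays as a bar beside the points; every panel spans the same height. Notch3 and Nrarp have all 3 ERaKO arrays below all 3 control arrays, and the other genes overlap.

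Among the receptors, Notch3 had log2 levels of 9.27, 9.20 and 9.37 in ERaKO replicates 1, 2 and 3, against 9.93, 9.55 and 10.20 in control replicates 1, 2 and 3. The 3 ERaKO arrays lay close together below the lowest control array, control replicate 2, and the spread of the controls was the wider (SD 0.09 in ERaKO and 0.33 in control arrays, n = 3 each). The difference was -0.62 ± 0.16 (SE), 0.652-fold of control, with a 95% interval of -0.99 to -0.24 and an adjusted p of 0.315 by limma. With 3 arrays a group, the smallest 2-sided p of an exact permutation test is 0.1. The deposited signals were 587.9, 549.3 and 816.6 in ERaKO arrays and 1005.9, 691.7 and 1013.3 in control arrays, so before normalisation the highest ERaKO array, replicate 3, stood above control replicate 2. ERaKO replicate 3 was the brightest array of the series, with a median signal of 28.6 against 18.7 to 22.7 on the other arrays.

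The Notch3 value came from a probe set whose name marks probes that can match more than 1 transcript. The other, dimmer Notch3 probe set read 6.63, 6.57 and 6.59 in ERaKO replicates 1, 2 and 3, against 7.17, 6.68 and 7.32 in control replicates 1, 2 and 3. Its groups did not overlap either, with control replicate 2 again nearest to the ERaKO arrays. Its difference was -0.46 ± 0.18 (SE, limma over all probe sets, adjusted p = 0.526). Both readings of the gene thus put control replicate 2 between the ERaKO arrays and the other controls.

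Without control replicate 2, Notch3 passed the threshold, at -0.79 ± 0.12 (SE, limma adjusted p = 0.0188). It was then 1 of 205 genes called lower (1.88% of 10916), beside 86 called higher, where all 6 arrays gave 0 and 0. Among the arrays left out, the difference was smallest without control replicate 3, at -0.46 (limma adjusted p = 0.401), and over all 16 alternatives the adjusted p ran from 0.0188 to 0.714. With the deposited scaling it was -0.46 (limma adjusted p = 0.662) and the groups overlapped, while the median of all genes moved to 0.14.

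Notch1, a receptor of many cell types, had log2 levels of 7.57, 7.52 and 7.58 in ERaKO arrays and 7.49, 7.26 and 7.69 in control arrays. The 3 ERaKO values lay inside the range of the controls. The difference was 0.07 ± 0.13 (SE), with a 95% interval of -0.23 to 0.37 (limma adjusted p = 0.876). Its dimmer probe set read 6.16, 6.12 and 6.20 in ERaKO arrays, against 5.73, 5.42 and 6.15 in control arrays. That is a difference of 0.39 ± 0.20 (SE, limma adjusted p = 0.645) with groups that overlapped only through control replicate 3. The 2 probe sets of Notch1 therefore had the same sign and different sizes, and neither passed.

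Notch2, the receptor mutated in Hajdu-Cheney syndrome of human bone, had 9.30, 9.18 and 9.30 in ERaKO arrays and 9.10, 9.18 and 9.37 in control arrays. The groups overlapped only through control replicate 3, and the difference was 0.05 ± 0.10 (SE) with a 95% interval of -0.19 to 0.28 (limma adjusted p = 0.899). A second Notch2 probe set lay under the level filter and differed by -0.02 ± 0.29 (SE). Notch4, the endothelial receptor, lay under the filter with all 3 of its probe sets. Its brightest had deposited signals of 13.9, 10.9 and 26.4 in ERaKO arrays and 30.3, 13.0 and 14.3 in control arrays, which overlap, and differed by -0.17 ± 0.20 (SE).

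Among the ligands, Jag1 had log2 levels of 9.59, 9.18 and 9.38 in ERaKO arrays and 9.52, 9.17 and 9.85 in control arrays. Control replicate 2 was the lowest of the 6 and control replicate 3 the highest, and the ERaKO arrays fell between them. The difference was -0.13 ± 0.18 (SE) with a 95% interval of -0.56 to 0.30 (limma adjusted p = 0.848). The 3 probe sets of Jag1 all lay below 0 but disagreed in size. The middle one in brightness read 6.66, 6.36 and 6.45 in ERaKO arrays and 7.03, 6.59 and 7.09 in control arrays, and differed by -0.42 ± 0.17 (SE, limma adjusted p = 0.559). The dimmest differed by -0.24 ± 0.16 (SE, limma adjusted p = 0.728), and its groups did not overlap.

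Jag2, the other Jagged ligand measured, lay under the level filter. Its brighter probe set had deposited signals of 20.2, 18.6 and 40.5 in ERaKO arrays and of 25.6, 15.6 and 29.8 in control arrays. These values overlap, and the difference was -0.03 ± 0.21 (SE). The dimmer one differed by -0.16 ± 0.19 (SE).

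Among the targets, Nrarp, which encodes an ankyrin repeat protein that is induced by Notch and dampens it by binding the intracellular domain, had log2 levels of 8.71, 8.37 and 8.67 in ERaKO arrays and 9.13, 8.91 and 9.46 in control arrays. All 3 ERaKO arrays lay below the lowest control, which was replicate 2. The difference was -0.58 ± 0.16 (SE), 0.668-fold of control, with a 95% interval of -0.96 to -0.20 (limma adjusted p = 0.329). Without control replicate 2 it was -0.71 (limma adjusted p = 0.0609), and without control replicate 3 it was -0.43. Over all 16 alternatives the adjusted p ran from 0.0609 to 0.741. In the deposited signals the groups overlapped, with 395.0, 299.0 and 497.3 in ERaKO arrays and 572.4, 435.7 and 601.6 in control arrays.

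The 2 probe sets of Nrarp differed. The dimmer read 7.21, 6.92 and 6.97 in ERaKO arrays, against 7.23, 6.96 and 7.33 in control arrays. Its groups overlapped and its difference was -0.14 ± 0.14 (SE, limma adjusted p = 0.835), and 0.01 with the deposited scaling. With the mean of both probe sets, the difference of Nrarp was -0.36 (limma adjusted p = 0.499) and its groups overlapped. For Notch3 the mean of both probe sets gave -0.54, with groups still apart.

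Hes1, the basic helix-loop-helix repressor that is the classical Notch target, had 9.76, 9.36 and 9.70 in ERaKO arrays and 9.75, 9.52 and 9.76 in control arrays. Replicate 2 was the lowest array of each group. The difference was -0.07 ± 0.13 (SE) with a 95% interval of -0.38 to 0.24 (limma adjusted p = 0.882). Hey1, a related repressor, had 8.12, 7.72 and 7.75 in ERaKO arrays and 7.90, 7.55 and 7.60 in control arrays. It was the tested target with a difference above 0, at 0.18 ± 0.15 (SE), with a 95% interval of -0.17 to 0.53 (limma adjusted p = 0.709). In both groups replicate 1 was the highest.

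Heyl, the family member known as a target of Notch3 in mural cells, had 7.13, 7.09 and 7.14 in ERaKO arrays and 7.43, 6.93 and 7.23 in control arrays. The ERaKO arrays lay close together, inside the range of the controls. The difference was -0.08 ± 0.14 (SE) with a 95% interval of -0.41 to 0.25 (limma adjusted p = 0.881). Its other probe sets differed by -0.06 and -0.04. With the deposited scaling the signs of Hes1, Heyl and Jag1 turned, to 0.084, 0.070 and 0.029.

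**Figure D2:**
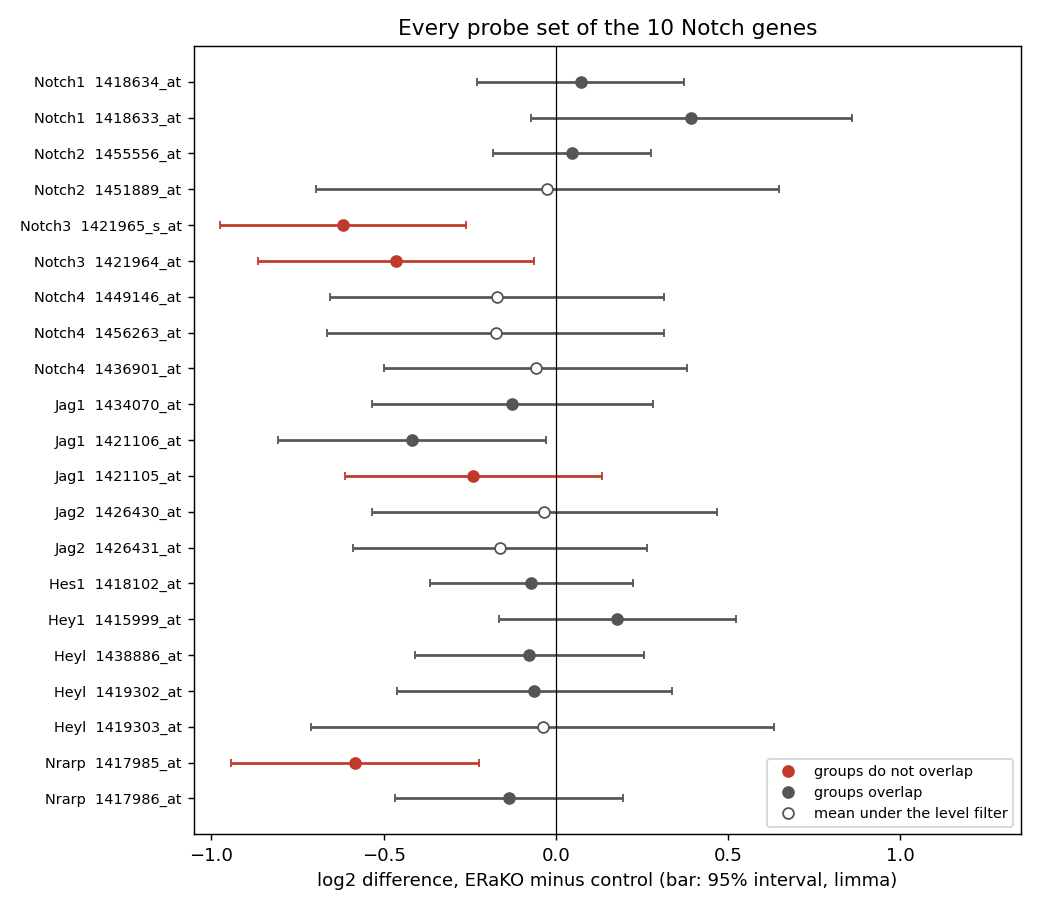
Log2 difference, ERaKO minus control, of each of the 21 probe sets with its 95% interval from limma, grouped by gene with the brightest probe set on top; red marks groups that do not overlap and open points a mean under the level filter. Of the 21 differences 17 lie below 0, and 4 probe sets, of Notch3, Jag1 and Nrarp, have separated groups. Several of the 17 lie above 0 with the deposited scaling.

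Over all 21 probe sets, 17 differences lay below 0 and 4 above, with a median of -0.08. Of all tested genes 51.7% lay below 0. The signs depended on the scaling. With the deposited scaling, the probe sets of Hes1 and Heyl lay above 0. So did the brightest of Jag1, the brighter of Jag2, the dimmer of Notch2 and Nrarp, and the dimmest of Notch4. The median of all tested genes then moved to 0.14. After quantile normalisation, groups of the 21 did not overlap for 4 as lower and for 0 as higher. Of all 45037 probe sets, 6.59% and 7.57% were separated in these directions. Probe sets of 1 gene share their transcript and are not independent readings. By limma over all probe sets, 0 of the 21 passed the threshold and 4 had an unadjusted p under 0.05: both of Notch3, 1 of Nrarp and 1 of Jag1, all lower. Over all probe sets 3.74% had such a p as lower and 4.74% as higher.

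Markers of vascular mural cells, which carry Notch3, were set beside these values. The list was chosen with earlier results of these data known, so its counts are a description and no independent support. Of 11 tested pericyte and smooth muscle genes, 10 had differences below 0, where 51.7% of all tested genes did, and 0 passed limma's threshold. Groups were separated as lower for 3 of the 11, beside the background of 7.76%, and these 3 also had an unadjusted p under 0.05. Such a p as lower was found for 4.69% of all tested genes. The mean level of the list, each gene centred over the 6 arrays, was -0.15, -0.21 and -0.26 in ERaKO replicates 1, 2 and 3, against 0.43, -0.34 and 0.53 in control replicates 1, 2 and 3. Control replicate 2 was the lowest array for this mean. The genes of the list differed in this: the contractile genes Acta2, Tagln and Cnn1, named after their values were seen, were lowest in control replicate 2. The 3 separated genes had control replicate 2 above all 3 ERaKO arrays, as had Notch3 and Nrarp. That holds by definition for any gene separated as lower and is no further likeness between them. The summed deposited signal of the list was 15142.3 to 18261.8 in ERaKO arrays and 15459.4 to 24842.9 in control arrays, and none of its genes was at 0.

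The brightest gene of that list, Rgs5, a pericyte gene whose protein limits G protein signals, had 12.66, 12.56 and 12.46 in ERaKO arrays, against 13.18, 13.09 and 13.18 in control arrays. Its 3 controls lay close together, and its difference was -0.59 ± 0.07 (SE, limma adjusted p = 0.120). The other separated genes of the list, named after their values were seen, were Kcnj8 and Abcc9, which encode the subunits of a potassium channel of pericytes and smooth muscle. Kcnj8 had 8.14, 8.11 and 7.87 in ERaKO arrays and 8.80, 8.72 and 8.46 in control arrays, a difference of -0.62 ± 0.13 (SE, limma adjusted p = 0.240). Abcc9 had 9.27, 9.11 and 9.17 in ERaKO arrays and 9.76, 9.71 and 9.46 in control arrays, a difference of -0.46 ± 0.11 (SE, limma adjusted p = 0.284). In both genes control replicate 3 was the lowest control. Without control replicate 2 the list's mean level differed by -0.69, and without control replicate 3 by -0.25. The part of mural cell RNA in the Notch3 and Nrarp differences was not tested, and in bulk RNA fewer cells of a type and less RNA per cell cannot be told apart.

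**Figure D3:**
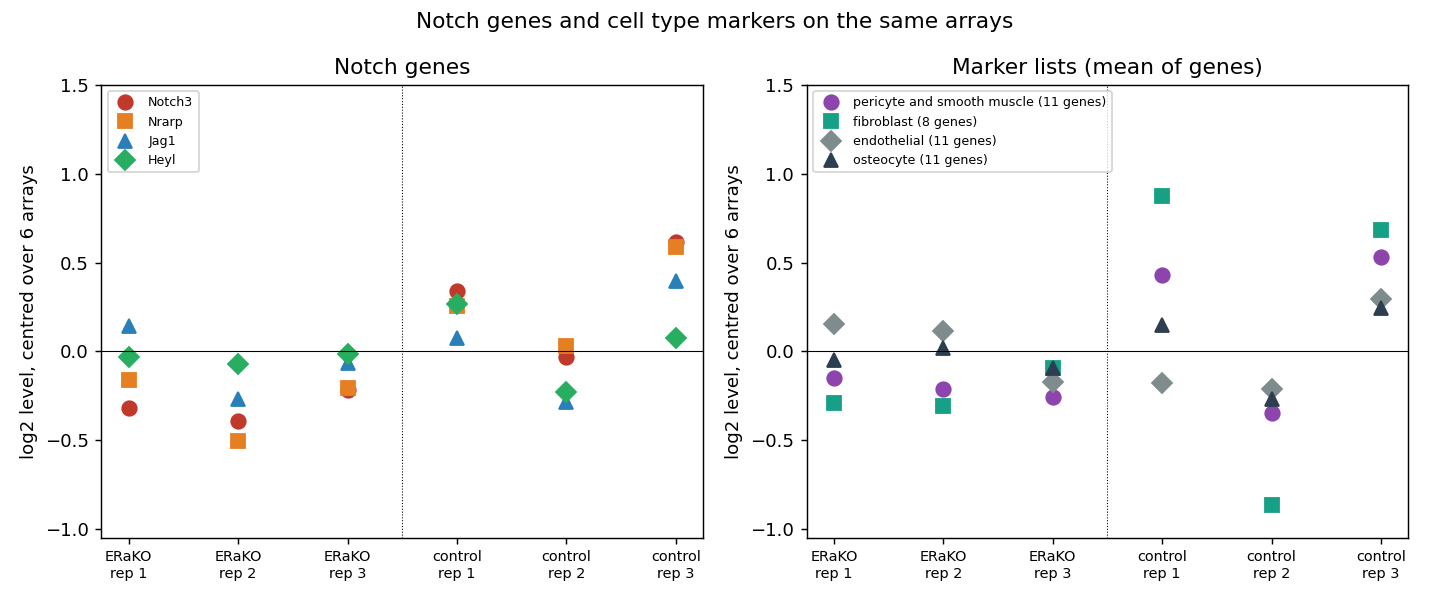
Left, log2 level of Notch3, Nrarp, Jag1 and Heyl on each array, centred over the 6 arrays; right, mean centred level of 4 marker lists on the same arrays, ERaKO left of control in both. Control replicate 2 is the lowest array of all 4 list means. Its Notch3 and Nrarp levels lie above those of all ERaKO arrays, as holds for any gene separated as lower.

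Other marker lists varied between arrays as follows. Fibroblast markers had a mean level of -0.31 to -0.09 in ERaKO arrays and of -0.86 to 0.88 in control arrays. The lowest array was control replicate 2. This mean was lower in ERaKO arrays by -0.46, beside -0.41 for the pericyte and smooth muscle list. Dropping single arrays moved the fibroblast value between -1.01 (control replicate 2 dropped) and -0.14 (control replicate 1 dropped). Of 8 tested fibroblast genes 6 had differences below 0, where 51.7% of all tested genes did, and 0 had separated groups. Endothelial markers, whose cells carry Notch4 and Notch1, had -0.17 to 0.15 in ERaKO and -0.21 to 0.30 in control arrays, with summed signals of 900.5 to 989.2 and 695.2 to 1035.1. Skeletal muscle markers ran from -0.68 to 1.04 in ERaKO arrays and from -3.94 to 2.17 in control arrays, and chondrocyte markers from 0.08 to 0.99 in ERaKO arrays and from -1.14 to -0.14 in control arrays. Control replicate 2, without which the calls above were made, was the lowest array of both lists, and its summed skeletal muscle signal was 131.3 where the other arrays had 4382.2 to 36977.4. Osteocyte markers, the labelled cell type, had -0.09 to 0.02 in ERaKO and -0.27 to 0.25 in control arrays, lowest in control replicate 2. Of 11 tested osteocyte genes 2 were separated as lower and 0 as higher, beside backgrounds of 7.76% and 9.23%. Dkk1, the osteocyte gene of smallest p, read 9.20, 9.35 and 9.12 in ERaKO arrays and 10.27, 9.44 and 10.04 in control arrays. Its difference was -0.70 ± 0.20 (SE, limma adjusted p = 0.349), with separated groups. Dmp1, the gene whose promoter drives the sorted GFP reporter, read 12.41, 12.55 and 12.69 in ERaKO arrays and 12.97, 12.67 and 12.90 in control arrays. Its difference was -0.30 ± 0.10 (SE, limma adjusted p = 0.410), with overlapping groups. Macrophage, osteoclast, neutrophil and osteoblast markers differed in mean level by 0.05, 0.26, -0.23 and 0.01. The mean levels of the chondrocyte and osteoclast lists were separated as higher in ERaKO arrays. The chondrocyte list differed by 1.31, and all 12 of its tested genes had differences above 0. Of these 12 genes 10 were separated as higher, and of 7 tested osteoclast genes 1 was, beside the background of 9.23%. The part of these cell types in the Notch gene levels was not tested.

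The rest of the pathway was read from a list of 57 genes, of which 52 were analysed here and 39 passed the level filter. By limma 0 of the 39 passed in either direction, and 7 had an unadjusted p under 0.05. Of all tested genes 5.85% had such a p as higher and 4.69% as lower. Groups were separated as higher for 3 and as lower for 4, beside backgrounds of 9.23% and 7.76%. The median difference of the 39 was -0.00068. Of the Delta-like ligands, Dll1 differed by -0.03 ± 0.24 (SE, limma adjusted p = 0.978), and Dll3 and Dll4 lay under the level filter, at -0.26 ± 0.18 and -0.30 ± 0.19 (SE). Dlk1, a non-canonical ligand, differed by 0.01 ± 0.58 (SE), and control replicate 2 read 6.55 where the other controls read 8.96 and 8.79. Dner, another non-canonical ligand, differed by 0.16 ± 0.19 (SE).

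Among the enzymes that cut the receptor, 2 of 7 had separated groups, both as higher, where 9.23% of all tested genes were. Both encode subunits of gamma-secretase. Psenen had 10.27, 10.47 and 10.19 in ERaKO arrays and 10.04, 10.01 and 9.89 in control arrays (difference 0.33 ± 0.10, SE, limma adjusted p = 0.377). Aph1a differed by 0.29 ± 0.11 (SE, limma adjusted p = 0.428). Adam10, the protease of the first ligand-induced cut, differed by -0.20 ± 0.14 (SE) with overlapping groups. The 3 tested enzymes that add sugars to the receptor differed by values above 0 with overlapping groups, at 0.15 for Pofut1, 0.14 for Poglut1 and 0.04 for Rfng.

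Of 12 tested genes of receptor trafficking and turnover, 0 had separated groups. Of all tested genes 9.23% were separated as higher and 7.76% as lower. The smallest p was that of Dtx4, a Deltex ubiquitin ligase, at -0.41 ± 0.18 (SE, limma adjusted p = 0.475), followed by the ligand-activating ubiquitin ligase Mib1 at 0.20 and by Dtx2 at 0.13. Of 11 nuclear genes, Rbpj itself read 8.27, 8.18 and 8.19 in ERaKO arrays and 8.18, 8.14 and 8.35 in control arrays, a difference of -0.01 ± 0.10 (SE, limma adjusted p = 0.985). Tle3, a Groucho corepressor, differed by -0.32 ± 0.10 and Kat2b, a histone acetyltransferase, by -0.22 ± 0.08 (SE, limma adjusted p = 0.377 and 0.425). These 2 of the 11 were separated as lower, beside the background of 7.76%. Maml1, a coactivator that binds Rbpj, differed by 0.16 ± 0.11 (SE).

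Of 9 other Hes and Hey relatives listed, 8 were analysed here and 3 passed the level filter. These 3 had separated groups, 1 as higher and 2 as lower, beside backgrounds of 9.23% and 7.76% of all tested genes. Hey2, a target in vascular cells, had 5.42, 5.49 and 5.49 in ERaKO arrays and 6.44, 5.59 and 5.91 in control arrays, a difference of -0.51 ± 0.22 (SE, limma adjusted p = 0.472). Its ERaKO levels lay close to the filter level of 5.37. Hes6 differed by -0.32 ± 0.13 (SE, limma adjusted p = 0.451). Bhlhe40, a stress- and clock-regulated repressor, had 10.13, 9.94 and 9.75 in ERaKO arrays and 8.89, 9.68 and 9.28 in control arrays, a difference of 0.66 ± 0.20 (SE, limma adjusted p = 0.373). It was the 1 gene of the 39 that passed without control replicate 2, as higher by 0.86 (limma adjusted p = 0.0384, against a background of 0.788%).

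**Figure D4:**
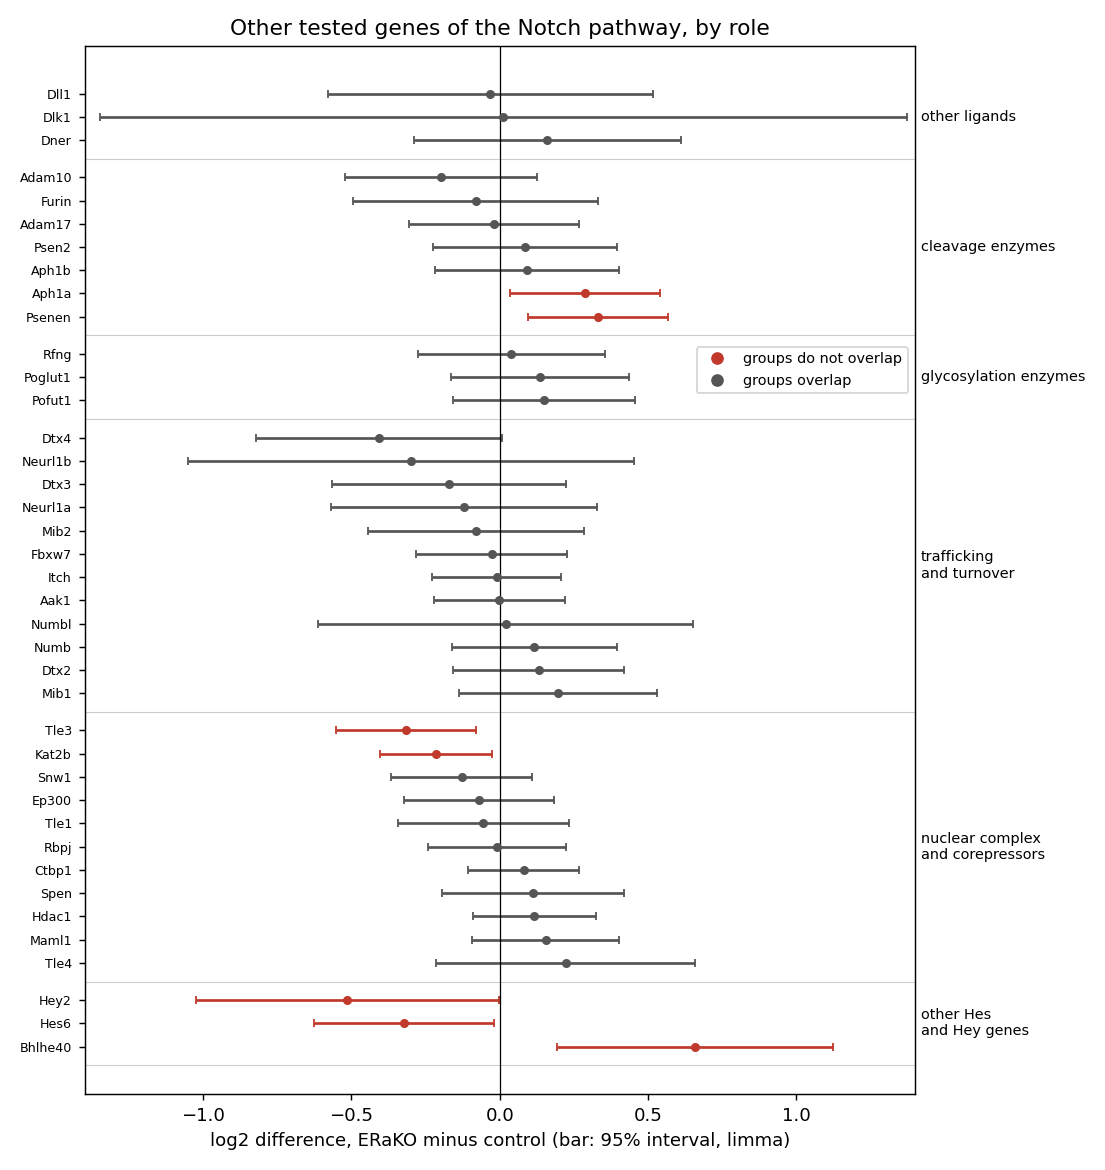
Log2 difference, ERaKO minus control, of the 39 other tested Notch pathway genes by role, with 95% intervals from limma; red marks groups that do not overlap. The 7 separated genes lie on both sides of 0, with Psenen, Aph1a and Bhlhe40 above it and Tle3, Kat2b, Hey2 and Hes6 below it.

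Notch3, Nrarp and Jag1 varied most over the 6 arrays, with SDs of 0.40, 0.38 and 0.26. Notch3 and Nrarp put the control arrays in the same order, with replicate 3 highest and replicate 2 lowest, and in ERaKO arrays both were lowest in replicate 2. Among 10915 other tested genes, the levels most like those of Notch3 were those of Anks1, Cript and Pip5k1b, and those most like Nrarp were those of Cck, Fam118a and Cript. For Jag1 they were Slc25a22, Dmpk and Ddx23. Pearson's r over the 6 arrays was 0.979 to 0.993 for these pairs, a description of arrays that share their normalisation and group difference. An r over 0.9 was reached by 199 genes for Notch3, 131 for Nrarp and 69 for Jag1.

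**Figure D5:**
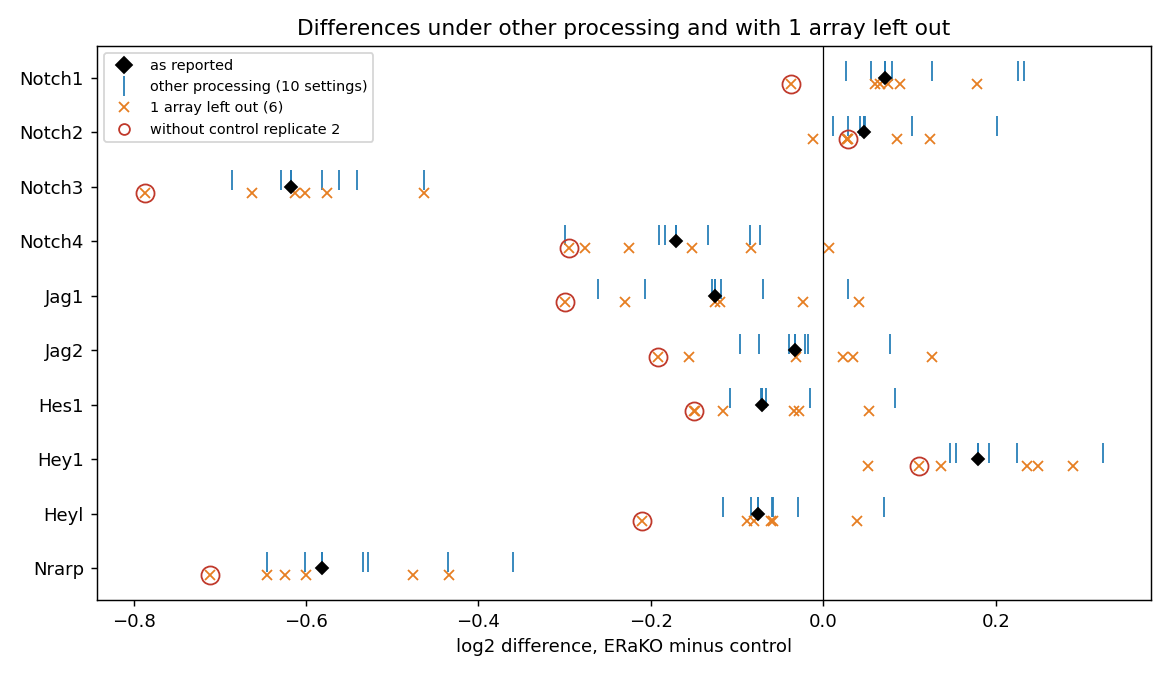
Log2 difference, ERaKO minus control, of each of the 10 genes as reported (diamond), under 10 other processing settings (blue bars) and with 1 array left out (orange crosses, red circle without control replicate 2). Notch3 and Nrarp stay below 0 and Hey1 above 0 in all 16 alternatives, and the other genes cross 0 in at least 1.

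Across 16 alternatives of processing and of arrays left out, Notch3 ran from -0.79 to -0.46, Nrarp from -0.71 to -0.36 and Hey1 from 0.05 to 0.32. These 3 kept their sign throughout. Each of the other 7 genes changed sign in 1 to 4 of the alternatives, within -0.30 and 0.23. Jag2 did so in 4 and Notch1 in 1.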

How the data were processed

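Total RNA of 6 samples, 3 ERaKO and 3 control, was hybridised, after biotin labelling, to Affymetrix arrays. The authors deposited 1 intensity per probe set and array on a linear scale. Per the submitters' processing notes the tool was GCOS (version not stated), and neither its background step nor its scaling target is described. Array medians were 18.7 to 28.6, and 38.6% to 46.9% of signals on an array lay under 16. Detection calls were not used here. Precision is limited by the array number.

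Of 45101 probe sets, 64 array controls were dropped. The platform annotation gave 1 gene for 34945 probe sets and several for 932, which were not named, and 9160 are unnamed here. Gene identifiers of 34741 were matched to RefSeq symbols. Because array medians differed by 0.36 in log2(signal + 16), arrays were quantile normalised. The brightest probe set stood for its gene. limma 3.58.1 in R 4.3.3 (lmFit, eBayes with a mean-variance trend, 2-sided) gave differences, SEs and 95% intervals. Other probe sets and genes under the filter take theirs from fits without it. The filter used the mean over all arrays. Steps were tested on simulated data.

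The members and lists were chosen with earlier results of these data known. Named genes were the 10 members, Dll1, Dll3, Dll4, Rbpj, up to 3 tested genes per pathway role with the smallest p, the brightest gene or the gene of smallest p of a marker list, and the 3 genes most like each of the 3 most variable members. Outside this rule, Kcnj8, Abcc9, Acta2, Tagln and Cnn1 of the pericyte and smooth muscle list were named after their values were seen. Some genes of the pathway list were not analysed here. The alternatives were 3 scalings in all, 3 pseudocounts, 3 filters, the mean of probe sets, no trend, array weights, the replicate number as a block, and each array left out.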

Additional observations from a re-analysis of the deposited data

How the results depend on the processing

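Leaving out 1 array gave 0 to 86 genes called higher and 0 to 205 called lower, 0 to 1 of the 8 tested Notch genes (Notch3), 0 to 1 of their 21 probe sets and 0 to 1 of the 39 other pathway genes (Bhlhe40), in each case above 0 only without control replicate 2. The deposited scaling gave 30 genes as higher and the shift to a common median 1, none of them a Notch gene. The median of all tested genes moved to 0.14 with the deposited scaling, that of the tested Notch genes to 0.077, and that of the other pathway genes to 0.16, and to 0.057 with the common median. With 1 array left out these last 2 medians ran from -0.18 to 0.015 and from -0.016 to 0.050. The cause was not tested. Of 160 values of single Notch genes, 8 changed sign among the tested ones: with the deposited scaling Jag1 (0.029), Hes1 (0.084) and Heyl (0.070), and with 1 array left out Hes1 (-0.15 to 0.053), Notch2 (-0.011 to 0.12), Heyl (-0.21 to 0.039), Notch1 (-0.037 to 0.18) and Jag1 (-0.30 to 0.041). Notch3 passed only without control replicate 2 (-0.79, limma adjusted p = 0.0188). Deviations of same-numbered arrays from their group means had r of -0.38, 0.10 and -0.04 for numbers 1, 2 and 3. Those of differently numbered arrays had r of -0.34 to 0.42. With 3 arrays a group, these values cannot decide whether the numbers pair the arrays. With the replicate block, Notch3 and Nrarp differed by -0.62 and -0.58 (limma adjusted p = 0.539 for both), and it changed no call. Notch4 and Jag2 lay near the dim end of the arrays, which limits what their values can show.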
